A study of Mus musculus with 9 samples.

Results

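The genes of 7 basement membrane proteins were followed in Reissner's membrane of the mouse cochlea: the collagen IV chains Col4a1 and Col4a2, the laminin chains Lama3, Lamb1, Lamb3 and Lamc1, and Nid1, which encodes nidogen 1 and is neither a collagen nor a laminin. They were chosen by name, with earlier results of these data known. Every probe set annotated to 1 of these genes alone was taken, which gave 15 of the 45101 probe sets on the array and 7 of 18193 genes. Of the 15 probe sets, 10 had enough signal to be tested, and each of the 7 genes had at least 1 of them. Reissner's membrane is a thin partition between 2 fluid spaces of the cochlea, the scala media and the scala vestibuli, and it was dissected by hand from adult mice. Fresh membranes went straight to RNA extraction, incubated membranes were held as explants for 24 h without added drug, and dexamethasone membranes were held for 24 h with 100 nM dexamethasone, a synthetic glucocorticoid. Each group had 3 arrays, lettered A to C, for 9 in all. The label of dexamethasone array A and the design text give the dose in nM, while the labels of arrays B and C are typed in mM. The sources used here give neither strain nor genotype. Membranes were pooled and several chips were hybridized for each pool, as the design text states. The p-values therefore measure only the spread between these arrays, which may be technical.

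A basement membrane is a thin sheet of extracellular matrix on which epithelial cells rest, and in Reissner's membrane it lies between the epithelium that faces endolymph and the mesothelial cells that face perilymph. Collagen IV chains assemble in triple helices that join into a covalent network, and the ubiquitous form is built from the Col4a1 and Col4a2 products. Laminins are heterotrimers of an alpha, a beta and a gamma chain that form a second network bound by cell-surface integrins, and nidogen bridges laminin to the collagen. Lamb1 and Lamc1 encode the beta and gamma chains of widely expressed laminins, whereas Lama3 and Lamb3 encode chains of laminin-332, which anchors epithelia through hemidesmosomes.

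Col4a1 and Col4a2 are neighbours transcribed away from each other, and their start regions are shown because these genes moved together in both main comparisons. RefSeq windows of 300 bases, 250 before and 50 after the annotated start, were searched for 5 of the 7 genes (6 windows, build GRCm38.p6). Lamc1 had no window in the sources used here, and Lama3 was left out of the search. Those of Col4a1 (chr8:11312777-11313076, minus strand) and Col4a2 (chr8:11312555-11312854, plus strand) are given 5′ to 3′, with the 78 bases that both windows share in capitals, read on opposite strands.
Col4a1: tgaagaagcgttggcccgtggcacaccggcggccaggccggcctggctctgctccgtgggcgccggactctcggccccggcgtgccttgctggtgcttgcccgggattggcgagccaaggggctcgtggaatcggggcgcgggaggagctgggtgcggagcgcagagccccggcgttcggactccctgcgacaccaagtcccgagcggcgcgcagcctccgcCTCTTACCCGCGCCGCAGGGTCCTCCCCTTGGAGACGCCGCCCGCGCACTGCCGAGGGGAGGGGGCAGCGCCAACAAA
Col4a2: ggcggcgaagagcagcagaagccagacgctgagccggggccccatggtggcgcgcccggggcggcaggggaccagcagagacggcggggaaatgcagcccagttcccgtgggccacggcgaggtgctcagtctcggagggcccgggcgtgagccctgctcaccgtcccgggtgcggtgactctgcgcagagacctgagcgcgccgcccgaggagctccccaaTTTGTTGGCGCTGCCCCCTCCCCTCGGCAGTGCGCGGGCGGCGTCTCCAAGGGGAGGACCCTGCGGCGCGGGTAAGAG
The annotated starts in these windows lie 21 bases apart, each inside the other gene, so the genes overlap at their starts. Lamb3 and Nid1 are shown because they moved in opposite directions with dexamethasone: Lamb3 by the first of its 2 windows (chr1:193301744-193302043, plus strand) and Nid1 by its single window (chr13:13437352-13437651, plus strand), with any motif found in capitals.
Lamb3: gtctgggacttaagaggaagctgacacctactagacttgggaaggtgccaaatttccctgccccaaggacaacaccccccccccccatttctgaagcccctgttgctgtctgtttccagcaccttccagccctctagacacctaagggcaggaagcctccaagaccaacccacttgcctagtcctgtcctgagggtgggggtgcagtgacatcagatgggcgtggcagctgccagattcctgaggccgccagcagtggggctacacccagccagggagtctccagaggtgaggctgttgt
Nid1: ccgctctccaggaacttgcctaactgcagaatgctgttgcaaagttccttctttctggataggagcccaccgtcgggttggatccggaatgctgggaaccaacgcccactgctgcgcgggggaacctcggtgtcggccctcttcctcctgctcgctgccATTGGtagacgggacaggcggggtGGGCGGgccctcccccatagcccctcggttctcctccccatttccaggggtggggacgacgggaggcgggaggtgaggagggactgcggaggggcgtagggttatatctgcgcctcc
Both strands were searched for the AP-1 motif (TGACTCA or TGAGTCA), the GC box (GGGCGG), the CCAAT box (CCAAT), the TATA box (TATAAA) and the glucocorticoid receptor palindrome (AGAACA, any 3 bases, TGTTCT). Col4a1 held 1 GC box and 1 CCAAT box, Col4a2 held 3 and 1, Lamb1 held 2 and 1, and Nid1 held 1 and 1. The GC box of Col4a1 lies in the shared bases and is also 1 of the 3 of Col4a2. GC boxes were found in 35.7% and CCAAT boxes in 37.4% of all 32851 windows of this length. None of the 6 windows searched held the AP-1 motif (5.2% of all windows), the TATA box (13.6%) or the exact palindrome (0.00913%), and neither Lamb3 window held any of the motifs. These are matches of letters in a short window, and no binding was measured.

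Arrays of a group were close to each other, with Pearson's r of 0.992 to 0.993 across tested probe sets. The deposited signals are linear, and a signal of 200 was used as a working floor because detection calls were not used. Below, levels are array signals given as mean ± SD (n = 3 arrays), and differences are given on the log2 scale, between group means, ± SE, from limma fitted to log2(signal + 32) over 18913 probe sets and all 9 arrays, with Benjamini-Hochberg adjusted p. Folds are on that scale too, and adding 32 understates differences of low signals. A gene or probe set is said to rise or fall where its adjusted p was under 0.05. Levels of different genes are not set against each other, since probe sets differ in how they report. In pooled tissue, fewer cells of a type and less RNA per cell cannot be told apart.

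Culture for 24 h raised 5 of the 7 genes. Col4a1 and Col4a2 rose by 1.65 and 1.83 (log2), Lamc1 and Nid1 rose less, Lama3 passed upward with signals mostly under the floor, Lamb1 was slightly lower, and Lamb3 did not pass the test. Over all 10242 genes tested in this comparison, 76.8% passed, 36.0% as higher and 40.7% as lower, so passing the test is common here. Over the tested probe sets 75.1% passed, 35.0% as higher and 40.1% as lower, and of the 10 probe sets of the 7 genes 7 rose and 1 fell. The median difference was 0.51 over the 7 genes, 0.46 without Lama3 and -0.039 over all genes tested. The 7 genes were chosen with earlier results known, so these medians and those below describe them and test nothing. Dexamethasone, set against 24 h without it, raised Col4a1, Col4a2 and Lamb3, lowered Nid1, and left Lamb1 and Lamc1 short of the test. Lama3 passed as higher too, but it was tested only because its 3 dexamethasone arrays lay above the floor, so its call was favoured by the filter. In that comparison 50.9% of genes passed, 22.3% as higher and 28.7% as lower, against 52.5%, 27.1% and 25.5% of probe sets, of which the 7 genes gave 5 rises and 1 fall in 10. The medians were 0.69 over the 7 genes, which is the value of Lama3 itself, 0.50 over the 6 genes without it and -0.030 over all genes. Both comparisons use the incubated arrays, so their differences are given side by side and not related to each other. With arrays scaled to 9 hybridization controls, the median difference of all tested probe sets moved from -0.050 to 0.28 for culture and from 0.0071 to -0.47 for dexamethasone. The 7 genes then gave 6 rises and no fall for culture, where 52.3% of all probe sets were higher and 22.6% lower, and 3 rises and 3 falls for dexamethasone, where 6.51% were higher and 72.6% lower. Centring each array on its median moved those medians to 0.28 and -0.11 and gave 7 rises and no fall for culture (53.5% of all probe sets higher and 23.6% lower), and 3 rises and 2 falls for dexamethasone (18.3% higher and 36.8% lower).

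**Figure D1:**
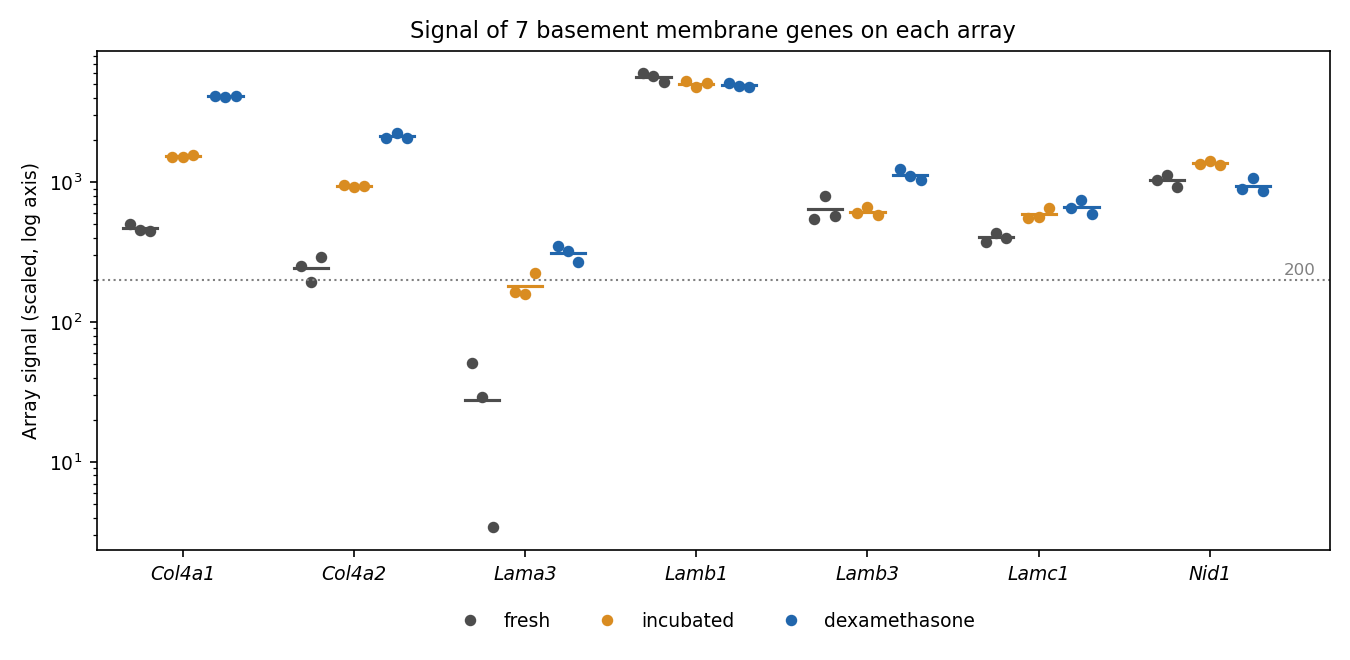
Array signal (log axis) of the 7 genes by the probe set with the highest mean, in fresh (grey), incubated (orange) and dexamethasone (blue) arrays. Each point is an array, each bar the mean of 3, and the dotted line the floor of 200; Col4a1 stands at 448 to 503, 1505 to 1570 and 4079 to 4135 in the 3 groups, with no overlap.

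Col4a1 was at 503, 452 and 448 on fresh arrays A, B and C, at 1505, 1527 and 1570 on incubated arrays and at 4135, 4079 and 4131 on dexamethasone arrays. All incubated arrays lay above all fresh arrays and all dexamethasone arrays above all incubated ones. Col4a1 encodes the alpha 1 chain, present with the alpha 2 chain in nearly every basement membrane. It rose by 1.65 ± 0.056 with culture (adjusted p = 5.26e-11), a 3.14-fold rise, and by a further 1.41 ± 0.056 with dexamethasone (adjusted p = 3.03e-09), a 2.65-fold rise. Its second probe set went from 175 ± 39.3 to 541 ± 12.4 and 1113 ± 23.6, with a rise of 1.48 ± 0.11 for culture and 1.00 ± 0.11 for dexamethasone (adjusted p at most 1.63e-05).

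Col4a2 was at 251, 193 and 290 on fresh arrays, at 959, 921 and 938 on incubated arrays and at 2079, 2237 and 2083 on dexamethasone arrays. Again no array of a group reached the range of another group. Its product pairs with the alpha 1 chain. Col4a2 rose by 1.83 ± 0.11 with culture (adjusted p = 6.56e-09), a 3.55-fold rise, and by 1.16 ± 0.11 with dexamethasone (adjusted p = 2.61e-06), a 2.23-fold rise. With hybridization-control scaling the dexamethasone rises of Col4a1 and Col4a2 were 0.93 and 0.68, still past the test (adjusted p at most 1.32e-05).

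The other collagen IV genes, which encode chains of more restricted networks, gave a mixed picture. Col4a3 and Col4a4, a second divergently placed pair that overlaps in the RefSeq gene table, both fell with culture: Col4a4 fell by 0.93 ± 0.089 (adjusted p = 8.01e-07) from 2740 ± 37.6 to 1438 ± 221, and Col4a3 fell by 0.63 ± 0.11 (adjusted p = 2.19e-04) from 375 ± 45.4 to 229.7 ± 14.7. Col4a5 rose by 0.26 ± 0.090 with culture (adjusted p = 0.0190), a call lost without fresh array A (0.21, adjusted p = 0.0775) or incubated array B (0.17, adjusted p = 0.0935). With dexamethasone Col4a3 rose by 0.35 ± 0.11 (adjusted p = 0.0196), a call lost without incubated array C (0.31, adjusted p = 0.0638) or dexamethasone array B (0.28, adjusted p = 0.0823), with quantile normalization (0.25, adjusted p = 0.0846) or with median centring (0.24, adjusted p = 0.0962), and reversed in sign by hybridization-control scaling (-0.12). Col4a4 (0.052 ± 0.089, adjusted p = 0.649) and Col4a5 (0.22 ± 0.090, adjusted p = 0.0534) did not pass, and both fell under that scaling (-0.42 and -0.25). The Col4a5 rise passed without incubated array B (0.31, adjusted p = 0.0129) or dexamethasone array C (0.29, adjusted p = 0.0218), or with quantile normalization (0.25, adjusted p = 0.0381). Col4a6 stayed under the floor, with 87.2 as its highest signal. Beyond Col4a1 and Col4a2 the family therefore counted 1 rise and 2 falls of 3 tested for culture, where 36.0% of all genes were higher and 40.7% lower. For dexamethasone it counted 1 rise and no fall, where 22.3% of all genes were higher and 28.7% lower. Each of those rises was lost in some of the settings given above.

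**Figure D2:**
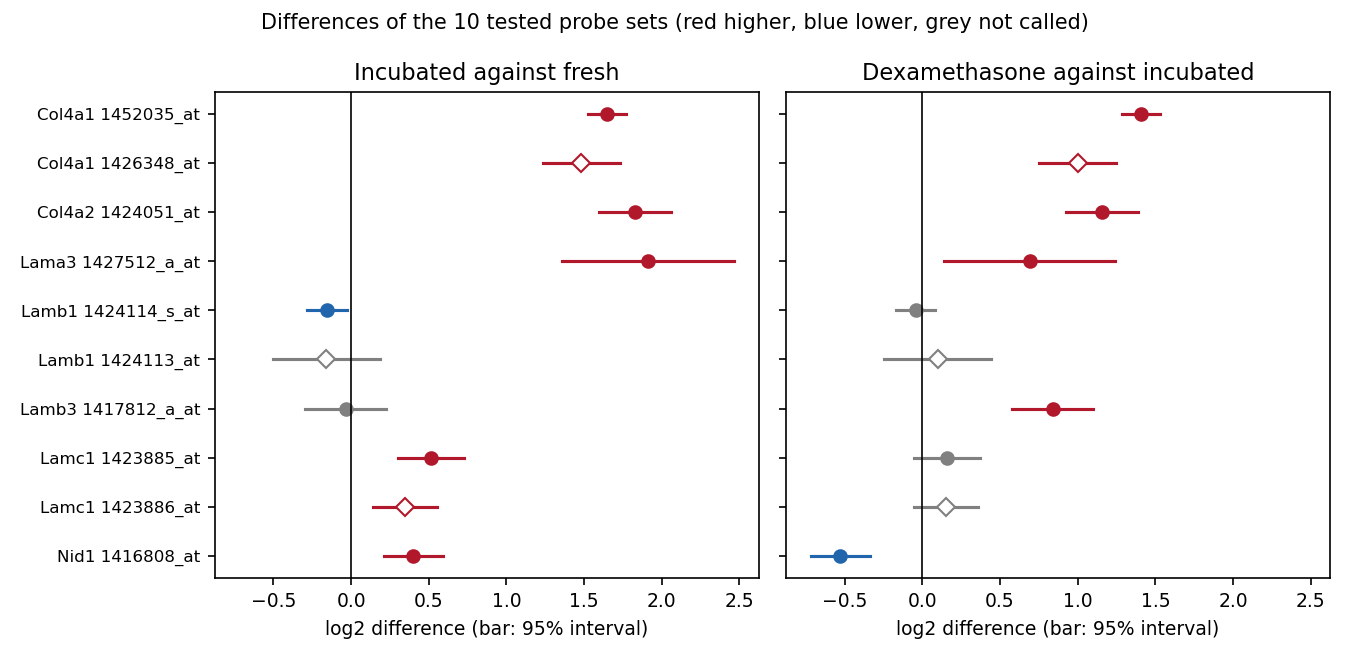
log2 difference (point) and 95% interval (bar) of the 10 tested probe sets of the 7 genes for culture (left) and dexamethasone (right). Filled circles are the probe sets that stand for a gene and open diamonds the others; the intervals of Col4a1 and Col4a2 lie above 0 in both panels, while Nid1 lies above 0 on the left and below 0 on the right.

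Laminin chains moved less evenly. Lama3, the alpha 3 chain of laminin-332, was at 51.2, 29.1 and 3.4 on fresh arrays, at 163, 159 and 225 on incubated arrays and at 349, 320 and 269.7 on dexamethasone arrays. The groups did not overlap, but 5 of 6 fresh and incubated arrays lay under the floor, so no fold is given for culture, which passed the test upward (adjusted p = 1.69e-05). With dexamethasone the fitted difference was 0.69 ± 0.25 (adjusted p = 0.0364), against incubated signals of which 1 of 3 lay above the floor. Lama3 passed the filter through its dexamethasone arrays, where it is high, so this call carries little weight. That call was lost without incubated array A (0.63, adjusted p = 0.0976), incubated array B (0.62, adjusted p = 0.103), dexamethasone array A (0.62, adjusted p = 0.109) or dexamethasone array B (0.67, adjusted p = 0.0814), with a pseudocount of 1 (0.78, adjusted p = 0.342), without the low-signal filter (adjusted p = 0.0830), without the intensity trend (adjusted p = 0.0542), with quantile normalization (0.57, adjusted p = 0.0599), with median centring (0.58, adjusted p = 0.0623) and with hybridization-control scaling (0.22, adjusted p = 0.415). Its second probe set never exceeded 35.4 and was not tested.

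Lamb3 was at 549, 794 and 577 on fresh arrays, at 599, 668 and 583 on incubated arrays and at 1249, 1101 and 1039 on dexamethasone arrays. Fresh and incubated arrays overlapped, and every dexamethasone array lay above all of them. Lamb3 encodes the beta 3 chain, the partner of the alpha 3 chain in laminin-332. Culture changed it by -0.035 ± 0.12 (95% interval -0.30 to 0.23, adjusted p = 0.802), a difference that became a rise under median centring or hybridization-control scaling (0.29 in both). Dexamethasone raised it by 0.84 ± 0.12 (adjusted p = 9.57e-05), or 1.79-fold, and by 0.36 with hybridization-control scaling (adjusted p = 0.0142).

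Lamc1, the gamma 1 chain of most laminins, was at 375, 434 and 399 on fresh arrays, at 555, 561 and 653 on incubated arrays and at 656, 742 and 591 on dexamethasone arrays. Fresh arrays lay below all others, and the incubated and dexamethasone arrays overlapped. It rose by 0.51 ± 0.099 with culture (adjusted p = 4.00e-04), or 1.43-fold, and its second probe set rose by 0.35 ± 0.095 (adjusted p = 0.00500). With dexamethasone the difference was 0.16 ± 0.099 (95% interval -0.054 to 0.37, adjusted p = 0.192), and it became a fall of -0.32 with hybridization-control scaling.

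Lamb1, the beta 1 chain, held an almost level signal: 5992, 5744 and 5241 on fresh arrays, 5320, 4762 and 5150 on incubated arrays and 5094, 4845 and 4833 on dexamethasone arrays. Neighbouring groups overlapped. Lamb1 fell by 0.15 ± 0.059 with culture (adjusted p = 0.0295), a change of 1.11-fold that was not called without fresh array A (adjusted p = 0.128), fresh array B (adjusted p = 0.0829) or incubated array B (adjusted p = 0.120), or without the low-signal filter (adjusted p = 0.0547) or the intensity trend (adjusted p = 0.0695), and that turned positive with median centring (0.17) or hybridization-control scaling (0.17). With dexamethasone it changed by -0.043 ± 0.059 (95% interval -0.17 to 0.085, adjusted p = 0.563), and it fell with median centring (-0.16) or hybridization-control scaling (-0.52). Another tested probe set, at 614 ± 97.7, 551 ± 126.5 and 587 ± 85.6, passed neither test, and 2 more stayed under 200 on every array. The probe set that stands for Lamb1 is of a kind that may hybridize to several transcripts.

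The laminin genes outside the set also moved in both directions with culture. Lama2, an alpha chain typical of muscle and nerve, went from 1223 ± 51.0 to 297 ± 26.6 and fell by 1.93 ± 0.091 with culture (adjusted p = 1.00e-09). Lamb2 fell by 1.01 ± 0.081 (adjusted p = 1.41e-07), and Lama5, an alpha chain widespread in epithelia, rose by 0.52 ± 0.062 (adjusted p = 5.76e-06). Dexamethasone raised Lama2 (0.54 ± 0.091, adjusted p = 3.34e-04), Lamb2 (0.56 ± 0.081, adjusted p = 9.48e-05) and Lama5 (0.19 ± 0.062, adjusted p = 0.0214). Those of Lama2 and Lamb2 no longer passed with hybridization-control scaling (0.063 and 0.088), and that of Lama5 turned to a fall (-0.29). The Lama5 rise was also not called with median centring (0.073), without incubated array C (0.16, adjusted p = 0.0759) or without dexamethasone array A (0.19, adjusted p = 0.0536). Lama1, Lama4 and Lamc3 did not reach the floor on any array. Of the 7 laminin genes tested, 3 rose and 3 fell with culture, where 36.0% of all genes were higher and 40.7% lower. Dexamethasone raised 5 and lowered none, where 22.3% of all genes were higher and 28.7% lower. Lama3, whose dexamethasone call was favoured by the filter, is among the 5 rises. Under hybridization-control scaling Lamb3 alone of these genes still rose with dexamethasone (0.36), while Lamb1 (-0.52), Lamc1 (-0.32) and Lama5 (-0.29) fell.

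**Figure D3:**
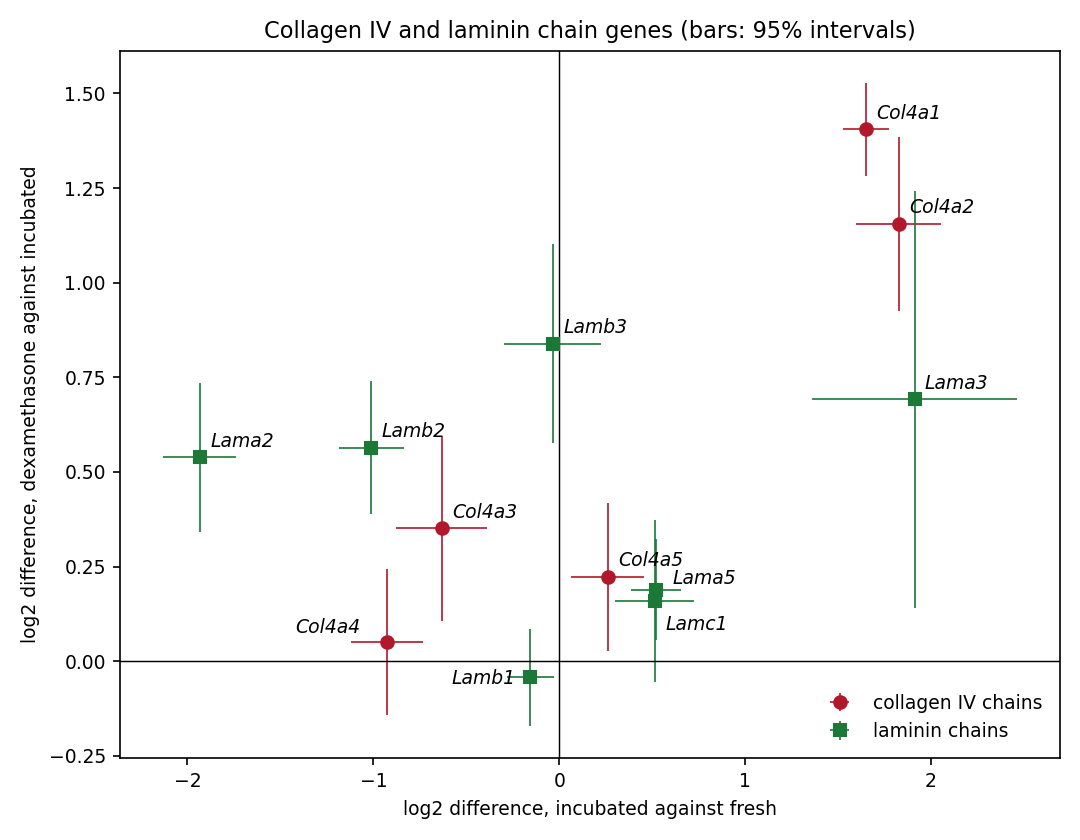
log2 difference for culture (horizontal axis) against that for dexamethasone (vertical axis) of 5 collagen IV genes (red circles) and 7 laminin genes (green squares), with 95% intervals as bars. The axes share the incubated arrays; Col4a1, Col4a2 and Lama3 lie at the upper right, Lama2 and Lamb2 at the left, and the Lama3 culture value rests on signals under the floor.

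Nid1 went the other way with dexamethasone. Its signal was 1043, 1122 and 929 on fresh arrays, 1360, 1410 and 1332 on incubated arrays and 888, 1072 and 865 on dexamethasone arrays. The incubated arrays lay above all others, and the fresh and dexamethasone arrays overlapped. Nid1 rose by 0.40 ± 0.087 with culture (adjusted p = 0.00107), or 1.32-fold, and fell by 0.53 ± 0.087 with dexamethasone (adjusted p = 2.80e-04), a 1.44-fold fall. Both directions held with median centring (0.73 and -0.64) and with hybridization-control scaling (0.73 for culture, and a fall with adjusted p = 2.07e-07 for dexamethasone). Its other probe sets stayed under 200 on every array and were not tested.

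Dexamethasone against fresh membranes was a secondary comparison that shares arrays with both others. Col4a1 rose by 3.06 ± 0.056 (adjusted p = 1.91e-13), or 8.31-fold, and Col4a2 by 2.98 ± 0.11 (adjusted p = 6.09e-11), or 7.91-fold. Lama3 was at least 1.56-fold higher, taken as the geometric mean of its dexamethasone signals over the floor, since its fresh arrays all lay under 200 (27.9 ± 23.9 against 312.8 ± 40.1, adjusted p = 8.59e-07). It passed the filter through its dexamethasone arrays, so this call too was favoured. Lamb3 (0.80 ± 0.12, adjusted p = 4.76e-05) and Lamc1 (0.67 ± 0.099, adjusted p = 3.84e-05) rose. Lamb1 fell by 0.20 ± 0.059 (adjusted p = 0.00805), although its second tested probe set did not pass (-0.061 ± 0.16, adjusted p = 0.739) and median centring gave 0.015. Nid1 did not pass (-0.13 ± 0.087, 95% interval -0.32 to 0.061, adjusted p = 0.195), though it did so as a fall without dexamethasone array B (-0.22, adjusted p = 0.0257) or with hybridization-control scaling (-0.28, adjusted p = 0.0237). These 5 rises and 1 fall stand against 78.1% of all genes passing, 35.4% as higher and 42.7% as lower. Without Lama3 the other 6 genes gave 4 rises and 1 fall. Their 10 probe sets gave 7 rises and 1 fall, where 76.2% of all probe sets passed, 37.8% as higher and 38.4% as lower.

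A wider list of basement membrane genes was read by role, from matrix components to receptors and enzymes. Of its 83 genes, 63 were tested, the 7 included. With culture 32 rose and 17 fell, so that 77.8% passed against 76.8% of all genes, of which 36.0% were higher and 40.7% lower. With dexamethasone 20 rose and 20 fell, or 63.5% against 50.9% of all genes, of which 22.3% were higher and 28.7% lower. The counts by role that follow are to be read beside these shares. The list medians were 0.26 and 0.052, against -0.039 and -0.030 over all genes tested. Median centring gave 48 rises and 12 falls for culture and 13 and 26 for dexamethasone, and hybridization-control scaling gave 47 and 12, and 7 and 44. Over all probe sets those scalings called 53.5% and 52.3% higher for culture, and 36.8% and 72.6% lower for dexamethasone.

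**Figure D4:**
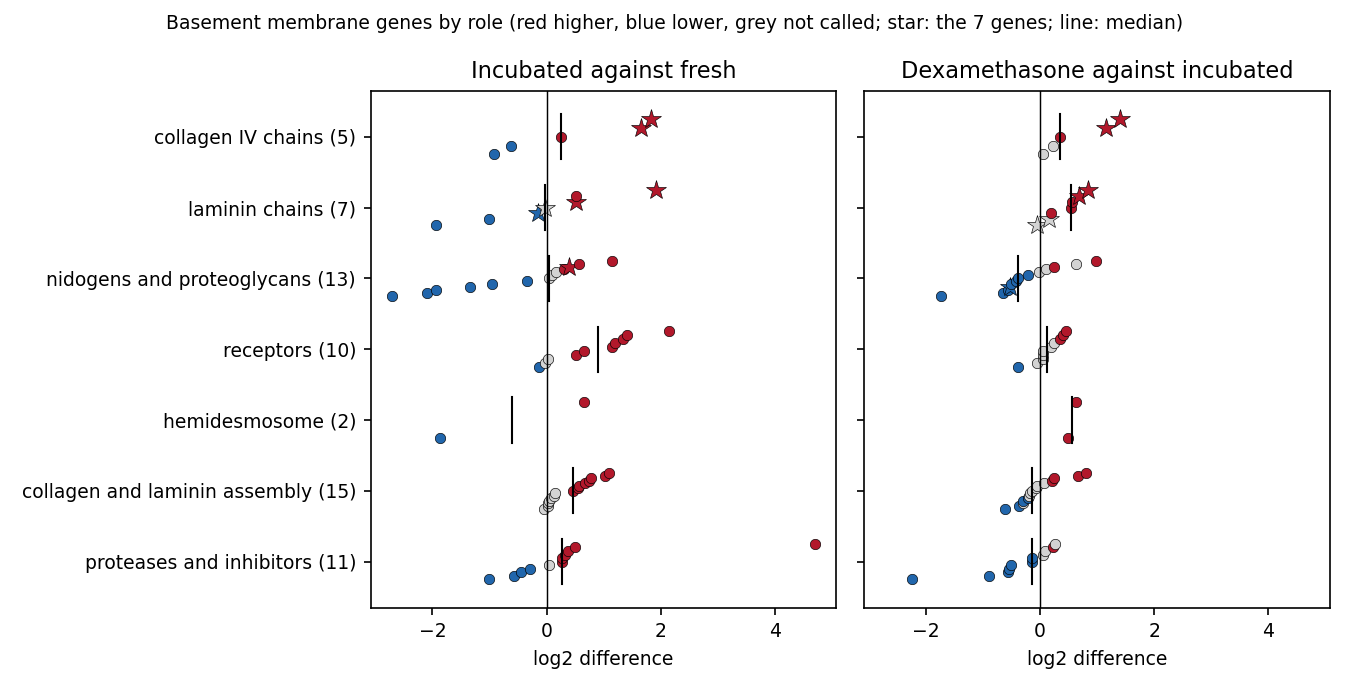
log2 difference of the 63 tested basement membrane genes by role for culture (left) and dexamethasone (right), with the number of genes in brackets. Points are genes, stars the 7 genes described above and vertical lines group medians; most receptor points lie to the right for culture, and most points of nidogens and proteoglycans lie to the left for dexamethasone.

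Among 12 nidogen, proteoglycan and other matrix component genes besides Nid1, 3 rose and 6 fell with culture, and 2 rose and 7 fell with dexamethasone. Col18a1, a collagen and heparan sulfate proteoglycan of epithelial basement membranes, rose by 1.14 ± 0.055 with culture (adjusted p = 1.26e-09) and by 0.25 ± 0.055 with dexamethasone (adjusted p = 0.00215), the latter a fall with hybridization-control scaling (-0.22) and not called with median centring (0.14, adjusted p = 0.0901). Agrn, the gene of the proteoglycan agrin, rose by 0.56 ± 0.050 with culture and fell by 0.22 ± 0.050 with dexamethasone (adjusted p at most 0.00284). Sparc, a collagen-binding matricellular protein, showed the order of Nid1, with a rise of 0.30 ± 0.066 and then a fall of 0.39 ± 0.066 (adjusted p at most 0.00117). The Fras1 and Frem genes encode a complex under the epithelial basement membrane: Frem2 fell by 2.71 ± 0.076 and by a further 0.55 ± 0.076, Frem1 fell by 0.96 ± 0.085 and by a further 1.73 ± 0.085 (adjusted p at most 6.91e-05), and Fras1 was at least 1.52-fold lower after culture (304 ± 15.0 against 55.5 ± 6.65, adjusted p = 4.19e-08). Fras1 and Fbln1, both among the falls with culture, passed the filter through their fresh arrays alone, so those calls were favoured. Fras1 is also among the falls with dexamethasone, where both groups lay under the floor (55.5 ± 6.65 against 29.8 ± 2.29) and no fold is given. Smoc1, a matricellular calcium-binding protein, fell by 1.34 ± 0.054 with culture (adjusted p = 2.31e-10) and did not pass with dexamethasone (0.11 ± 0.054, adjusted p = 0.0957; -0.36 with hybridization-control scaling). Fbln2, a fibulin, was at least 1.92-fold higher with dexamethasone than without (385 ± 39.7 against 178 ± 19.1, adjusted p = 2.64e-05). Its fall of 0.35 ± 0.12 with culture (adjusted p = 0.0186) was not called with quantile normalization (-0.087), median centring (-0.022) or hybridization-control scaling (-0.021). That call was also lost without fresh array B (adjusted p = 0.0531), fresh array C (adjusted p = 0.0720) or incubated array C (adjusted p = 0.0745). Nid2, the second nidogen gene, exceeded the floor on too few arrays to be tested (highest signal 204).

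Of 10 receptor genes for laminin and collagen, 7 rose and 1 fell with culture, and 3 rose and 1 fell with dexamethasone. Itga6, the alpha subunit of laminin-binding integrins, rose by 1.34 ± 0.059 (adjusted p = 5.53e-10), Itgb1, the common beta subunit, by 1.14 ± 0.060 (adjusted p = 2.70e-09), and Itga7 was at least 3.37-fold higher (127 ± 13.4 to 675 ± 43.3, adjusted p = 6.01e-10). Dag1, the dystroglycan gene, fell by 0.13 ± 0.047 (adjusted p = 0.0219), a change that became a rise with median centring or hybridization-control scaling (0.19 and 0.20) and that was not called without the intensity trend (adjusted p = 0.0569), without fresh array C (adjusted p = 0.0814) or without incubated array C (adjusted p = 0.0795). With dexamethasone Sdc4, a syndecan, rose by 0.40 ± 0.048, Itgb4, the hemidesmosomal integrin subunit, by 0.47 ± 0.099 and Ddr1, a collagen receptor kinase, by 0.34 ± 0.088 (adjusted p at most 0.00568), while Itgb1 fell by 0.38 ± 0.060 (adjusted p = 1.91e-04). The rises of Sdc4, Itgb4 and Ddr1 were lost with hybridization-control scaling (-0.073, -0.010 and -0.13). Of the hemidesmosome genes, which link keratins to integrin, Plec rose in both comparisons (0.65 ± 0.044 and 0.62 ± 0.044, adjusted p at most 2.79e-07), and Dst fell by 1.86 ± 0.086 with culture (adjusted p = 8.17e-10) and rose by 0.48 ± 0.086 with dexamethasone (adjusted p = 4.77e-04; 0.0087 with hybridization-control scaling, not called).

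Genes for collagen folding, secretion and cross-linking rose in 8 of 15 cases with culture and fell in none. P3h1, among these rises, passed the filter mainly through its incubated arrays (242 ± 22.6, against 155 ± 9.55 in fresh arrays), so its call was favoured. Lox, a lysyl oxidase, rose by 1.10 ± 0.052, Serpinh1, the collagen chaperone HSP47, by 1.03 ± 0.079, and Loxl1 by 0.77 ± 0.069 (adjusted p at most 3.75e-07). Dexamethasone gave 4 rises and 4 falls: Plod2, a collagen lysyl hydroxylase, rose by 0.81 ± 0.062 and Lox by 0.67 ± 0.052 (adjusted p at most 6.89e-07), and Crtap, part of a prolyl hydroxylase complex, fell by 0.62 ± 0.055 (adjusted p = 2.15e-06). Sec23a (-0.29 ± 0.071) of the vesicle coat that exports procollagen and Plod3 (-0.21 ± 0.064) also fell (adjusted p at most 0.0151), the latter not called without incubated array A (adjusted p = 0.0679), incubated array C (adjusted p = 0.0510) or dexamethasone array B (adjusted p = 0.0607). Rises of Ppib (0.21 ± 0.050, adjusted p = 0.00416) and Loxl1 (0.24 ± 0.069, adjusted p = 0.00967) turned to falls with hybridization-control scaling (-0.27 and -0.23) and were not called with median centring.

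Of 11 genes for matrix proteases and their inhibitors, 6 rose and 4 fell with culture, and 1 rose and 7 fell with dexamethasone, a comparison in which 22.3% of all genes were higher and 28.7% lower. Timp1, a secreted metalloproteinase inhibitor, was at least 15.7-fold higher after culture (90.6 ± 24.4 to 3132 ± 152, adjusted p = 2.56e-12) and fell by 0.89 ± 0.11 with dexamethasone (adjusted p = 3.49e-05). Mmp14, a membrane-bound metalloproteinase, rose by 0.32 ± 0.058 and then fell by 0.51 ± 0.058 (adjusted p at most 2.66e-04). The gelatinase gene Mmp9 was at least 1.61-fold lower after culture (324 ± 33.4 against 145 ± 15.1, adjusted p = 3.34e-05), and with dexamethasone its signal was 5.67 ± 3.07, for which no fold is given. Mmp9 passed the filter through its fresh arrays alone, so its fall with culture was favoured. Its fall with dexamethasone lay between groups that were both under the floor. Bmp1 is among the rises with culture and the falls with dexamethasone (189 ± 41.3, 251 ± 31.8 and 161 ± 13.4 in the 3 groups). It passed the filter through its incubated arrays, so both of its calls were favoured. Plat, the tissue plasminogen activator gene, fell by 0.53 ± 0.062 with dexamethasone (adjusted p = 1.76e-05), and Timp2 fell by 0.44 ± 0.052 with culture (adjusted p = 5.77e-06), a call lost with median centring or hybridization-control scaling (-0.11 in both), and rose by 0.22 ± 0.052 with dexamethasone (adjusted p = 0.00355; -0.26 with hybridization-control scaling, and not called with median centring). Ctsl rose by 0.49 ± 0.042 with culture and Adamts1 fell by 0.58 ± 0.061 (adjusted p at most 2.12e-06).

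For each of the 7 genes, the 2 genes with the most similar course over the 9 arrays were found by Pearson's r of log2 signal, a description that is dominated by the 3 group means. Col4a1 was closest to Naa15 (r = 0.998) and Cebpb (0.998), a transcription factor gene that went from 532 ± 7.02 to 1042 ± 45.6 and 1900.0 ± 24.2. Col4a2 was closest to Saa3 (0.998), an acute phase gene, and Gadd45b (0.998). The nearest genes were Smap1 (0.988) and Wdr1 (0.987) for Lama3, Slc6a8 (0.971) and Taf15 (0.963) for Lamb3, R3hdm1 (0.980) and Gtf2a2 (0.975) for Lamc1, Fbxo36 (0.972) and Nsun4 (0.965) for Nid1, and Mfap3l (0.944) and Tmem54 (0.917) for Lamb1. Such courses were common for some members and rare for others: r was over 0.95 for 475 genes with Col4a1 and 611 with Col4a2, but for 2 with Lamb3 and none with Lamb1.

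Markers of several cell types were read on the same arrays, and their lists moved in different directions. The summed signal of 9 epithelial markers was 32737 to 33830 in fresh, 74375 to 76685 in incubated and 85328 to 89456 in dexamethasone arrays, with 8 of 9 higher after culture and 6 higher and 1 lower with dexamethasone. Much of the rise with culture was Krt8 (4026 ± 178 to 18103 ± 687) and Krt18 (5329 ± 214.5 to 17608 ± 800.1). Esrp1 stayed near level (3486 ± 37.65 in fresh and 3344 ± 230.1 in incubated arrays). Epcam went from 11773 ± 303 in incubated to 9480 ± 234 in dexamethasone arrays. For 10 endothelial markers the sums were 3811 to 4137, 1826 to 1834 and 3076 to 3370, with 2 of 3 tested lower after culture and 2 higher with dexamethasone. Pecam1, Cdh5, Tie1, Vwf and Esam of that list stayed under 200 on all arrays, and Flt1, 1 of the 3 tested, went from 323 ± 42.5 in incubated to 1361 ± 106.5 in dexamethasone arrays. The sums of 8 pericyte and smooth muscle markers were 4639 to 5088, 22909 to 23441 and 21652 to 22854, a gap set mainly by Rgs5 (1438 ± 58.5 in fresh and 19576 ± 52.7 in incubated arrays), with 3 of 5 tested higher and 1 lower after culture and 2 each way with dexamethasone. Mesothelial and fibroblast markers (11 genes) summed to 32797 to 34205, 14294 to 16368 and 14848 to 15892, with 2 of 8 tested higher and 6 lower after culture and 2 higher and 4 lower with dexamethasone. The mesothelial genes of that list did not move together: Msln went from 45.1 ± 10.7 in fresh to 1203 ± 37.1 in incubated and 941 ± 24.3 in dexamethasone arrays, while Upk3b, Wt1 and Lrrn4 stayed under 200. Markers of fibrocytes and neurons, cells beside the membrane, were lower after culture: 6 cochlear fibrocyte markers summed to 59165 to 60991 in fresh and 4349 to 4675 in incubated arrays, and 7 neuron markers to 16852 to 17913 and 171 to 240.1, with every marker of both lists lower. All 7 neuron markers passed the filter through their fresh arrays alone, so those calls were favoured. The same holds for Col1a1, Lum and Thy1 of the fibroblast list and Abcc9 of the pericyte list. With dexamethasone the fibrocyte sum was 4723 to 4900 and the neuron sum 216 to 321. The near-level fibrocyte sum held 3 markers that were higher and 2 that were lower with dexamethasone. Pou3f4 went from 612 ± 20.8 in incubated to 1674 ± 56.85 in dexamethasone arrays, and Tbx18 from 2393 ± 215 to 1649 ± 220. Of the neuron markers 1 was higher and 1 lower, with all signals of both groups under 200. The 5 Schwann cell markers with a probe set of their own summed to 29707 to 30591, 12046 to 12958 and 14335 to 15715, a drop with culture that was mostly S100b (14752 ± 411 to 216 ± 46.1). Sox10 went from 9522 ± 339 in fresh to 6528 ± 345.5 in incubated arrays, Pmp22 from 2556 ± 167 to 2165 ± 52.5 and Mbp from 3339.5 ± 107 to 3612 ± 83.7. Of 4 tested, 1 was higher and 3 lower after culture, and 2 were higher and none lower with dexamethasone. The 8 macrophage markers summed to 4673 to 4934, 4205 to 4378 and 4514 to 4797, but members moved in opposite directions, with 2 of 5 tested higher and 3 lower after culture and 2 each way with dexamethasone. With culture Cd68 went from 130.0 ± 20.2 to 1647 ± 96.5 and Adgre1 from 194 ± 17.6 to 551 ± 25.4, while Csf1r went from 2986 ± 91.4 to 1365 ± 92.7 and Ptprc from 827 ± 99.6 to 376 ± 37.1. The part of these cells in the results was not tested.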

How the data were processed

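Per the labels' protocols, RNA was purified on columns and amplified by in vitro transcription in 2 rounds. The deposited values are linear intensity signals for each probe set and array. The authors brought every array to a common target of 500, per the labels; which software did so is not given in the sources used here. Every array had a mean signal of 500 once 2% of values were trimmed from either end. No normalization was added.

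Probe sets with a signal of at least 200 on at least 3 of the 9 arrays were tested (18913, without 64 control probe sets), as log2(signal + 32), in limma 3.58.1 (R 4.3.3) with 1 mean per group and eBayes with an intensity trend. A gene high in 1 group alone could pass this filter through that group. A gene was represented by whichever of its tested probe sets was brightest on average (log2), with symbols from GEO's platform annotation updated through RefSeq. Intervals are 95% intervals of the fit, and precision is limited by the number of arrays. Besides the 7 genes, all tested collagen IV and laminin genes were named, and per role up to 3 rises and 3 falls with the smallest adjusted p in each main comparison; other genes named, such as Nid2, cell markers and genes of similar course, come from those lists or from the similarity ranking. The fit was tested on simulated data. Correlations of deviations between arrays of the same letter ran from -0.062 to 0.16, and those of different letters from -0.16 to 0.15. These values gave no sign that letters pair samples, but they cannot exclude it. Alternatives were other scalings, pseudocounts, floors, fits and probe sets, and leaving out each array. Tables and figures used Python 3.11.15, pandas 2.3.3, NumPy 2.4.6 and matplotlib 3.10.9. The members and lists were chosen with earlier results of these data known.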

Additional observations from a re-analysis of the deposited data

How the results depend on the processing

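Over 3 comparisons and all alternatives run, 336 values of the 7 genes kept their direction and side of the threshold (or passed under neither setting), 6 reversed, 17 lost a call and 4 gained one; for other named genes the counts were 1834, 18, 43 and 31. Col4a1 and Col4a2 kept their calls and directions in every comparison and setting in which they were tested. With median centring the culture differences of Lamb1 (0.17), Lamb3 (0.29) and Dag1 (0.19) were positive, as with hybridization-control scaling (0.17, 0.29 and 0.20), and for dexamethasone against fresh those of Lamb1 (0.015), Dag1 (0.14) and Mmp14 (0.025). Hybridization-control scaling raised the probe sets called for dexamethasone against incubated from 9936 to 14965, and 1232 of these were higher and 13733 lower, against 5116 and 4820. In that comparison it turned negative Lamc1 (-0.32), Col4a3 (-0.12), Col4a4 (-0.42), Col4a5 (-0.25), Lama5 (-0.29), Col18a1 (-0.22), Smoc1 (-0.36), Dag1 (-0.42), Ddr1 (-0.13), Itgb4 (-0.010), Sdc4 (-0.073), Loxl1 (-0.23), Ppib (-0.27), Adamts1 (-0.43) and Timp2 (-0.26). The cause was not tested. For culture, median centring and hybridization-control scaling gave 10110 rises with 4461 falls and 9894 with 4279 over all tested probe sets, against 6620 with 7593.

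With the array letter as a replicate block, 14130 probe sets were called for culture, 9811 for dexamethasone against incubated and 14369 for dexamethasone against fresh, against 14213, 9936 and 14419, and as many of the 10 probe sets of the 7 genes were called (8, 6 and 8). The block brought Col4a5 (0.22, adjusted p = 0.0452) and Itga7 (0.24, adjusted p = 0.0467) past the test for dexamethasone against incubated, and took Col4a3 (-0.28, adjusted p = 0.0519) below it for dexamethasone against fresh; it changed no other call of a named gene. The median without Lama3 was chosen after seeing the data. Signals under 200 limit Lama3 most.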
